A study of Homo sapiens with 18 samples.

Results

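The HOX genes are homeodomain transcription factors that lie in 4 clusters, HOXA on chromosome 7, HOXB on chromosome 17, HOXC on chromosome 12 and HOXD on chromosome 2. They were followed here in A549, a cell line established from a human lung cancer. Members were the genes whose symbol is HOXA, HOXB, HOXC or HOXD followed by a number alone, each read by the brightest array probe set that carries that 1 symbol. This gave 27 members among 18377 genes tested. They were 10 of the 10 HOXB genes and 9 of the 9 HOXD genes in the RefSeq annotation, 7 of 9 HOXC genes and 1 of 11 HOXA genes, which was HOXA2. The other HOXA genes, HOXC4 and HOXC6 were not analysed here as members.

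Cells were transfected with siRNA against PKCiota and PKCzeta, the atypical members of the protein kinase C family (siPKCiz), or with a control siRNA (siControl). Cells of either arm were serum starved and then left untreated, or given 250 pM TGFβ for 1 h, washed, and kept in 0.2% serum until RNA was taken at 8 h or 24 h. Growth medium held 10% serum in every group. Each of the 6 groups had 3 biological replicates, 18 arrays in all. No collection time, wash or serum level after starvation is labelled for untreated cells. TGFβ therefore cannot be told apart from time in culture, the wash or the serum level. Where the replicates came from is not stated further, and p-values measure the spread between these arrays.

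HOX genes set the identity of segments along the body axis of the embryo. Their order along a chromosome follows the order in which they are used from head to tail, so that genes with low numbers act in the hindbrain and neck and genes numbered 9 to 13 act in the trunk, limbs and tail. HOX proteins bind DNA together with partner homeodomain proteins of the PBX and MEIS families. Polycomb complexes keep the clusters silent by methylating histone H3 at lysine 27, and MLL (KMT2) complexes and the demethylases KDM6A and KDM6B act against them. In the lung, mouse Hoxa5 and Hoxb5 have known roles in the growth of the airways.

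The sequences below are those of the gene pair that rose most and of 2 microRNAs encoded inside the clusters, one of which, miR-196a, is known to target HOXB8. The promoter windows hold the 250 bases before the gene start, from RefSeq on GRCh38.p14, plus strand. They lie at chr2:176116528-176116777 for HOXD10 and at chr2:176107030-176107279 for HOXD11. Capitals mark any match to CAGAC, the core of SMAD binding sites, to GGCGCC, a GC-rich SMAD site, or to TGANTCA, an AP-1 site, each searched on both strands.
HOXD10: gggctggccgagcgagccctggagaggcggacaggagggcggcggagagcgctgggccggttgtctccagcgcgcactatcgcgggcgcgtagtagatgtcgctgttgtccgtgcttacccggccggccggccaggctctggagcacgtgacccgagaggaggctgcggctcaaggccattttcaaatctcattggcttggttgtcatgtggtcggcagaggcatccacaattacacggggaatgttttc
HOXD11: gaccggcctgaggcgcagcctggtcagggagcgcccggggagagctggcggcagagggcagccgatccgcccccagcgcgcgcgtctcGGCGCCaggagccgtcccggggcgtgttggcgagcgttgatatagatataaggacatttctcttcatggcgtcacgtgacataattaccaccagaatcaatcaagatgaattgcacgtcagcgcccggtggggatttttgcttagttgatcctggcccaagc
HOXD11 held 1 match to GGCGCC, and the HOXD10 window held 0 matches to the 3 motifs. Of all 35116 promoter windows of this length, 38.0% held CAGAC, 16.4% held GGCGCC and 6.57% held TGANTCA. Promoters of 11 members were in the table, and 3, 2 and 0 of them held the 3 motifs in that order. The mature microRNAs have their seed, bases 2 to 8, in capitals.
hsa-miR-196a-5p: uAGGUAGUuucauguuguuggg
hsa-miR-10a-5p: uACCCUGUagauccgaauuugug
The first is encoded on chromosomes 17 and 12 and the second on chromosome 17, and they do not share a seed.

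Depth does not apply to arrays, and the 3 arrays per group limit the precision. Values are log2 of the deposited intensity, and array medians lay between 7.29 and 7.33. A probe set's own affinity shapes its level, so levels are compared between groups within a gene and not between genes. As a scale for dim signal, 20 genes restricted to other tissues had mean log2 intensities from 5.83 to 7.72, with a median of 6.40. Over all arrays 14 of 27 HOX members had means above the highest of these. HOXB2 (7.43), HOXB13 (7.44), HOXC10 (7.43) and HOXD11 (7.69), all called below, had means within that range. Of the 27 HOX members, 19 were above the median of all probe sets in at least 1 group, and the other 8 (HOXB1, HOXB4, HOXC11, HOXC12, HOXD1, HOXD3, HOXD12 and HOXD13) were below it in every group. The line carried its epithelial markers, KRT8 at group means from 12.78 to 13.10 and KRT18 from 11.46 to 11.76. The alveolar genes NKX2-1 (6.01 to 6.15) and SFTPC (6.47 to 6.61) and the leukocyte gene PTPRC (5.59 to 5.72) were dim in all groups. Their lists were not dim throughout. Over all arrays the 5 alveolar genes measured had means from 6.08 to 9.68, and the 5 leukocyte genes measured from 5.65 to 9.7. The targeted gene PRKCI differed between siPKCiz and siControl by -2.24 ± 0.052 log2 units over the 3 conditions (standard error, SE, from the fit, as for every ± on a log2 change here). PRKCZ differed by -1.07 ± 0.14, and least in replicate 1, with 7.92, 7.99 and 7.68 in siPKCiz without TGFβ, at 8 h and at 24 h against 8.05, 8.27 and 8.24 in siControl.

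**Figure D1:**
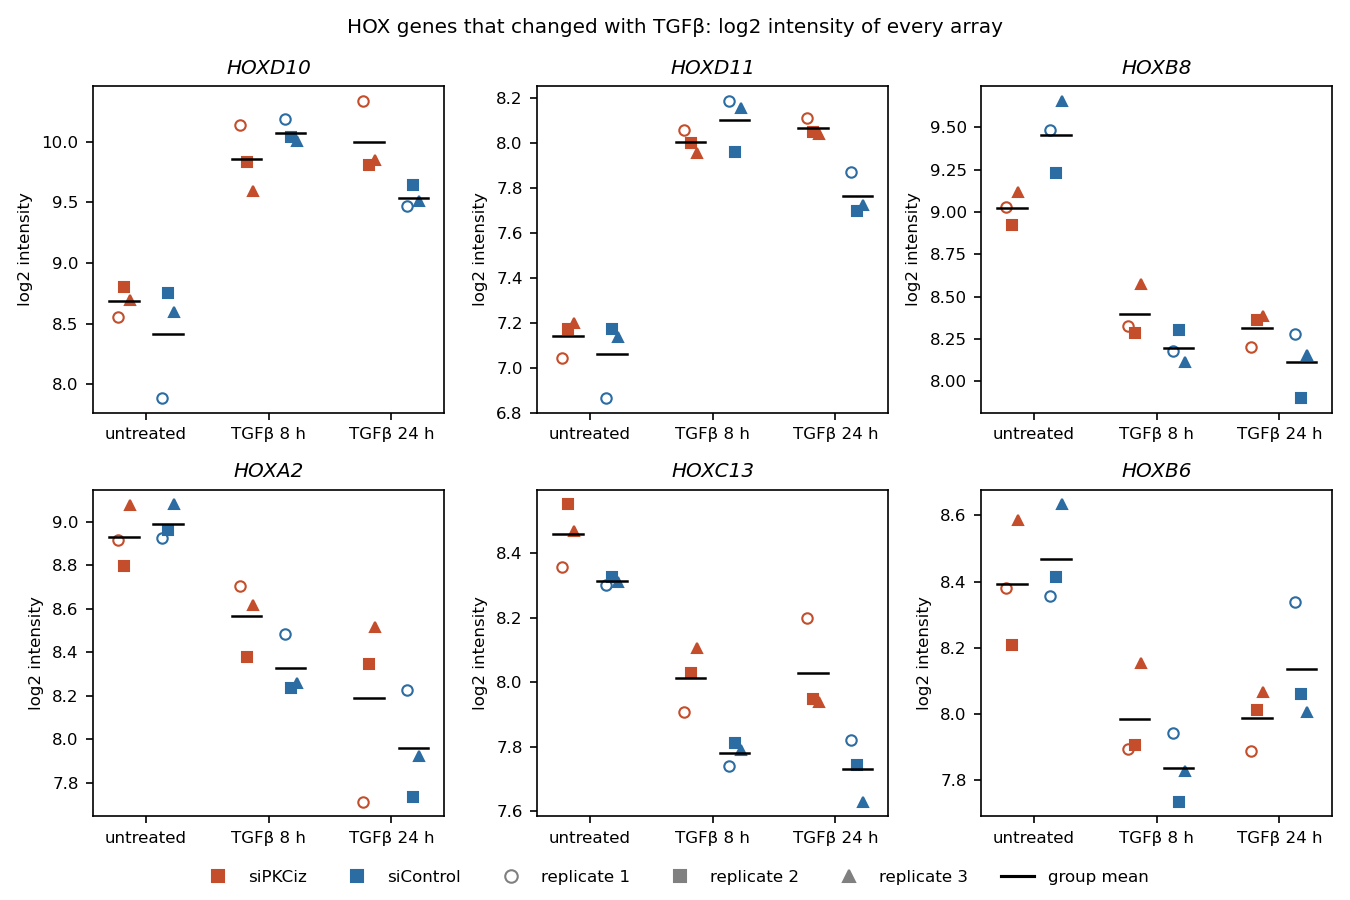
Log2 intensity of 6 HOX genes on all 18 arrays, by condition, with siPKCiz (red) left of siControl (blue), 1 symbol shape per replicate and black bars for group means. HOXD10 and HOXD11 lie higher on every TGFβ array than on every untreated array of the same arm, and HOXB8 lies lower.

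HOXD10 and HOXD11, neighbours in the posterior part of the HOXD cluster that pattern the limb in mouse, rose with TGFβ in both arms and at both times. HOXD10 in siPKCiz cells had log2 intensities of 8.55, 8.81 and 8.69 without TGFβ, 10.14, 9.83 and 9.60 at 8 h, and 10.34, 9.81 and 9.85 at 24 h. In siControl cells it had 7.88, 8.75 and 8.59 without TGFβ, 10.18, 10.04 and 10.00 at 8 h, and 9.47, 9.64 and 9.51 at 24 h. Treated and untreated arrays did not overlap in either arm, and the lowest value of all was siControl replicate 1 without TGFβ. In siPKCiz the rise was 1.17 ± 0.18 log2 units at 8 h (2.25-fold; limma adjusted p = 0.000607) and 1.32 ± 0.18 at 24 h (2.49-fold; adjusted p = 8.66e-05). In siControl it was 1.67 ± 0.18 at 8 h (3.17-fold; adjusted p = 1.16e-05) and 1.13 ± 0.18 at 24 h (2.19-fold; adjusted p = 0.000311).

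HOXD11 in siPKCiz cells had 7.04, 7.17 and 7.20 without TGFβ, 8.06, 8.00 and 7.96 at 8 h, and 8.11, 8.05 and 8.04 at 24 h. In siControl cells it had 6.86, 7.17 and 7.14 without TGFβ, 8.19, 7.96 and 8.16 at 8 h, and 7.87, 7.70 and 7.73 at 24 h. Without TGFβ all 6 arrays were below the median of all probe sets, and with TGFβ all 12 were above it. The rise in siPKCiz was 0.87 ± 0.089 at 8 h (1.82-fold; adjusted p = 1.63e-05) and 0.93 ± 0.089 at 24 h (1.90-fold; adjusted p = 2.3e-06). In siControl it was 1.04 ± 0.089 at 8 h (2.06-fold; adjusted p = 1.52e-06) and 0.71 ± 0.089 at 24 h (1.63-fold; adjusted p = 2.74e-05). Both genes kept their calls without any 1 of the 3 replicate numbers. The rest of the cluster moved less. HOXD9, on the other side of HOXD10, rose in siPKCiz at 24 h by 0.36 ± 0.085 (1.29-fold; adjusted p = 0.0082), a call lost without replicate 2 (adjusted p = 0.115) and without replicate 3 (0.0722), and in siControl it stood at 0.09 ± 0.085 (adjusted p = 0.617). HOXD12, which follows HOXD11, was dim and its changes lay between -0.09 and 0.09. HOXD13, HOXD8, HOXD4, HOXD3 and HOXD1 were not called at either time in either arm, with changes between -0.18 and 0.22.

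HOXB8, a gene of the thoracic region known for holding blood progenitors in an immature state when overexpressed, fell with TGFβ in both arms. In siPKCiz cells it had 9.03, 8.92 and 9.12 without TGFβ, 8.33, 8.28 and 8.57 at 8 h, and 8.20, 8.36 and 8.39 at 24 h. In siControl cells it had 9.48, 9.23 and 9.66 without TGFβ, 8.18, 8.30 and 8.11 at 8 h, and 8.28, 7.90 and 8.16 at 24 h. Every treated array was below every untreated one, and the siControl arrays without TGFβ were the highest. The fall in siPKCiz was -0.63 ± 0.12 at 8 h (1.55-fold lower; adjusted p = 0.002) and -0.71 ± 0.12 at 24 h (1.63-fold lower; adjusted p = 0.000424). In siControl it was -1.26 ± 0.12 at 8 h (2.39-fold lower; adjusted p = 2.45e-06) and -1.34 ± 0.12 at 24 h (2.54-fold lower; adjusted p = 6.34e-07). These 4 calls held without any 1 replicate number.

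The HOXB genes beside it fell less or were not called. HOXB6 in siPKCiz had 8.38, 8.21 and 8.59 without TGFβ, 7.89, 7.91 and 8.15 at 8 h, and 7.89, 8.01 and 8.06 at 24 h. The siControl values were 8.36, 8.41 and 8.63 without TGFβ, 7.94, 7.73 and 7.83 at 8 h, and 8.34, 8.06 and 8.01 at 24 h. It fell in siPKCiz at 8 h (-0.41 ± 0.11; adjusted p = 0.0351) and at 24 h (-0.40 ± 0.11; adjusted p = 0.0256). In siControl it fell at 8 h (-0.63 ± 0.11; adjusted p = 0.000937) and stood at -0.33 ± 0.11 at 24 h (adjusted p = 0.0621). Treated and untreated arrays did not overlap in either arm. Both calls in siPKCiz were lost when any 1 replicate number was left out, with adjusted p between 0.0788 and 0.177.

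HOXB5, which acts in lung branching in mouse, fell in siControl at 8 h to 8.20, 8.03 and 7.85, against 8.49, 8.58 and 8.71 without TGFβ (-0.56 ± 0.15; adjusted p = 0.0146). In siPKCiz it stood at -0.43 ± 0.15 at 8 h (adjusted p = 0.0974), with 8.05, 8.37 and 8.35 against 8.54, 8.56 and 8.96. HOXB2, a hindbrain gene in mouse, fell in siPKCiz by 0.50 ± 0.13 at both times (adjusted p = 0.0215 at 8 h and 0.0151 at 24 h) and in siControl at 24 h by 0.45 ± 0.13 (adjusted p = 0.0243). HOXB13, the most posterior gene of the cluster and a marker of prostate, fell in siPKCiz at 8 h (-0.38 ± 0.096; adjusted p = 0.022) to 7.38, 7.43 and 7.42, against 7.60, 7.91 and 7.84 without TGFβ. The calls of HOXB5, HOXB2 and HOXB13 were lost without replicate 2 and without replicate 3, with adjusted p between 0.143 and 0.333. HOXB1, HOXB3, HOXB4 and HOXB7 were not called at either time in either arm. HOXB3 lay between -0.16 and -0.32 in the 4 comparisons.

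HOXB9, next to HOXB8 on the posterior side, was not called against untreated cells but was lower at 24 h than at 8 h in siControl (-0.57 ± 0.12; adjusted p = 0.0174). Without TGFβ it had 9.57, 9.15 and 9.39 in siPKCiz against 9.61, 9.16 and 9.34 in siControl. Its siControl values were 8.86, 9.13 and 9.18 at 24 h against 9.66, 9.61 and 9.62 at 8 h, with no overlap. In siPKCiz they were 9.19, 9.29 and 9.34 at 24 h against 9.45, 9.75 and 9.71 at 8 h (-0.37 ± 0.12; adjusted p = 0.196). The siControl call was lost without replicate 2 (adjusted p = 0.184) and without replicate 3 (0.204). It was the 1 member of 27 called in that comparison, where 2.41% of all genes were called. In siPKCiz 0 members were called by limma between 24 h and 8 h, against 0.805% of all genes. An unadjusted limma p under 0.05 was reached by 4 members, and the share of all genes at that level was not counted.

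HOXA2, which gives the second branchial arch its identity in mouse, fell at 24 h in both arms. In siPKCiz it had 8.92, 8.80 and 9.08 without TGFβ, 8.71, 8.38 and 8.62 at 8 h, and 7.71, 8.35 and 8.52 at 24 h. In siControl it had 8.92, 8.96 and 9.08 without TGFβ, 8.48, 8.24 and 8.26 at 8 h, and 8.23, 7.74 and 7.92 at 24 h. Replicate 1 was the lowest at 24 h in siPKCiz and the highest in siControl, and treated and untreated arrays did not overlap. The change at 24 h was -0.74 ± 0.16 in siPKCiz (1.67-fold lower; adjusted p = 0.00534) and -1.03 ± 0.16 in siControl (2.04-fold lower; adjusted p = 0.000256). At 8 h it was -0.36 ± 0.16 in siPKCiz (adjusted p = 0.241) and -0.66 ± 0.16 in siControl (adjusted p = 0.0103), the last lost without replicate 2 (0.143) and without replicate 3 (0.153). HOXA-AS2, a non-coding RNA of the HOXA cluster, also fell at 24 h, by 0.52 ± 0.11 in siPKCiz (adjusted p = 0.00467) and by 0.46 ± 0.11 in siControl (adjusted p = 0.00901). Its probe set was dim, with 6.22, 6.52 and 6.44 at 24 h against 6.90, 6.83 and 7.01 without TGFβ in siPKCiz.

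HOXC13, which drives hair keratin genes, was the member of its cluster called with TGFβ, and it fell. In siPKCiz it had 8.36, 8.55 and 8.47 without TGFβ, 7.91, 8.03 and 8.10 at 8 h, and 8.20, 7.95 and 7.94 at 24 h. In siControl it had 8.30, 8.33 and 8.31 without TGFβ, 7.74, 7.81 and 7.79 at 8 h, and 7.82, 7.74 and 7.63 at 24 h. The untreated siControl arrays lay within a narrow band and all treated arrays were below it. The change in siPKCiz was -0.45 ± 0.084 at 8 h (adjusted p = 0.00237) and -0.43 ± 0.084 at 24 h (adjusted p = 0.00199), and both calls were lost without replicate 2 (0.131 and 0.155) and without replicate 3 (0.0578 and 0.095). In siControl it was -0.53 ± 0.084 at 8 h (adjusted p = 0.000311) and -0.58 ± 0.084 at 24 h (adjusted p = 9.93e-05), and these held. Of the other HOXC genes, 0 of 6 were called by limma against untreated cells in either arm. HOXC10 stood at -0.38 ± 0.18 at 8 h in siPKCiz (adjusted p = 0.288) and at -0.48 ± 0.18 in siControl (adjusted p = 0.107). Its treated and untreated arrays did not overlap at 8 h in either arm, and they overlapped at 24 h in both. HOXC9, a thoracic gene and the brightest HOXC probe set, had 9.12, 8.95 and 9.02 at 8 h in siPKCiz against 8.79, 8.76 and 8.80 untreated, and 9.10, 8.83 and 9.05 at 8 h in siControl against 8.66, 8.76 and 9.04 untreated. These groups overlapped in siControl only, and over both times its changes lay between 0.03 and 0.25 with adjusted p of 0.166 or more.

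**Figure D2:**
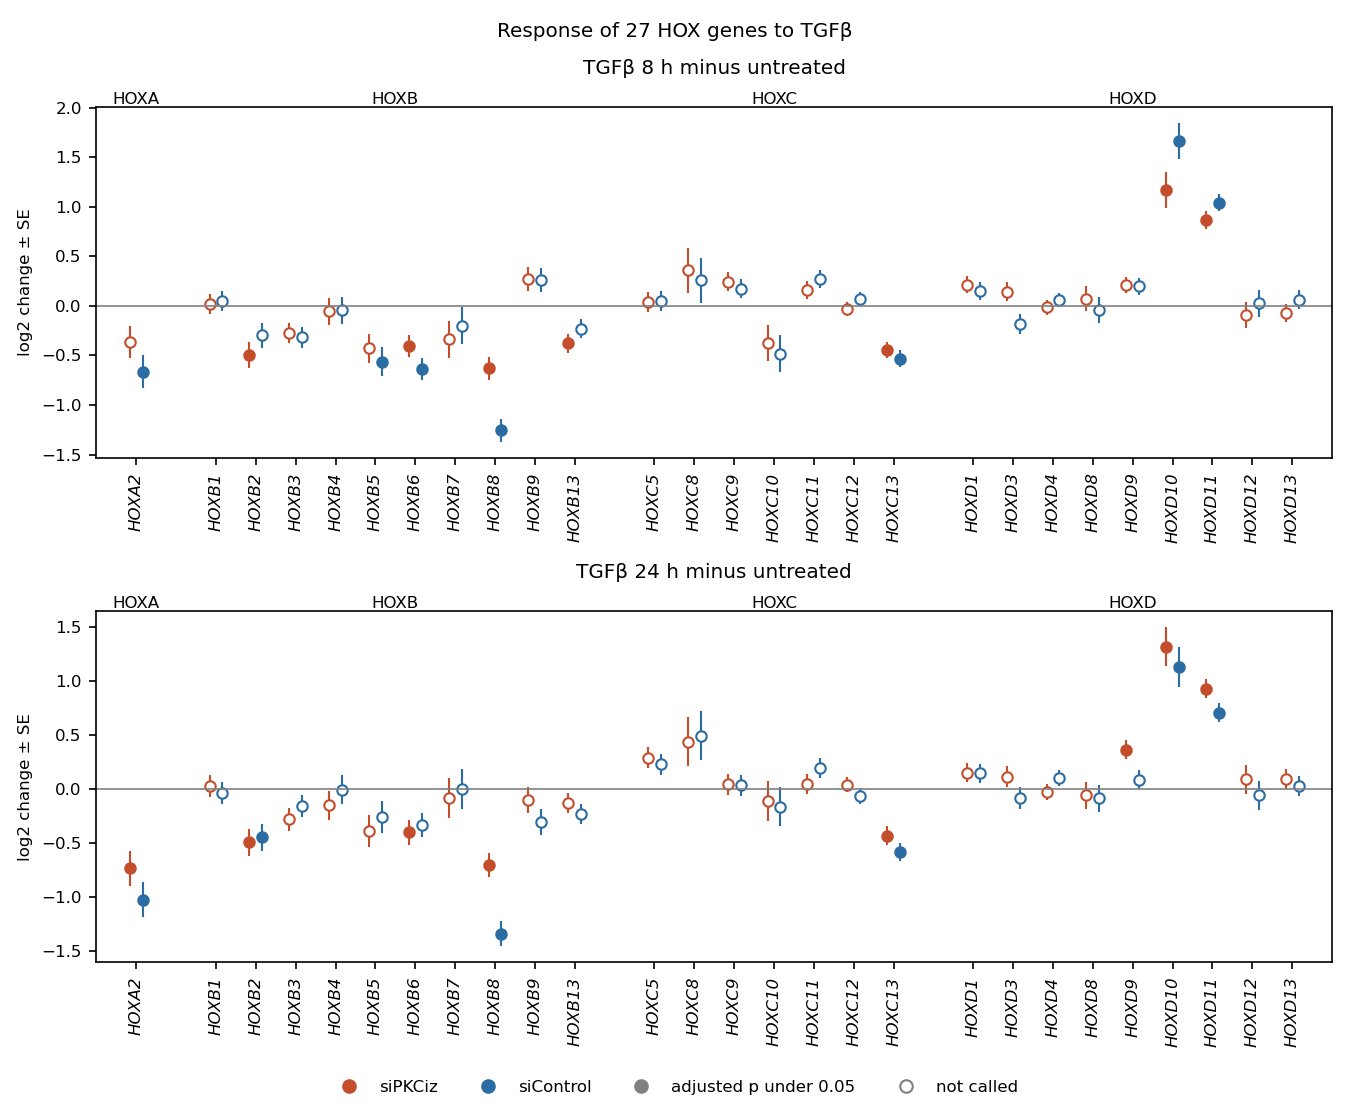
Log2 change with TGFβ at 8 h (top) and 24 h (bottom) for the 27 HOX genes in the order of their clusters, with siPKCiz (red) left of siControl (blue); bars are ± 1 SE, filled points have a limma adjusted p under 0.05 over all genes. HOXD10 and HOXD11 stand above 0.7 in all 4 comparisons, and HOXB8 lies between -0.63 and -1.34.

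Counted over the members, 2 of 27 rose and 5 fell at 8 h in siPKCiz, and 2 rose and 5 fell at 8 h in siControl. That is 25.9% of members in each arm, where 6.48% of all genes were called in siPKCiz (3.13% rose, 3.35% fell) and 11.4% in siControl (5.17% rose, 6.18% fell). At 24 h 3 rose and 5 fell in siPKCiz (29.6% of members, against 10.7% of all genes, with 4.65% that rose and 6.09% that fell), and 2 rose and 4 fell in siControl (22.2%, against 12.3% of all genes, with 5.85% that rose and 6.46% that fell). The median change over the 27 members lay from -0.057 to 0.028, and over all genes from -0.01 to 0.002, but the clusters differed in direction. The HOXB median was -0.356 at 8 h and -0.218 at 24 h in siPKCiz, and -0.262 and -0.247 in siControl, with 2 and 1 of 10 HOXB changes above 0 in siPKCiz and 2 and 0 in siControl, called or not. The HOXD median was 0.144 at 8 h and 0.112 at 24 h in siPKCiz, and 0.063 and 0.086 in siControl. The HOXC median was also above 0, at 0.04 and 0.043 in siPKCiz and 0.072 and 0.032 in siControl. A small positive median was thus not particular to HOXD. The median size of the change at 8 h, whatever its sign, was 0.268 over the members against 0.094 over all genes in siPKCiz, and 0.229 against 0.105 in siControl. At 24 h the gap was smaller, with 0.149 against 0.114 in siPKCiz and 0.166 against 0.108 in siControl. All risen members were HOXD genes, and the fallen ones were HOXA2, HOXC13 and HOXB genes. At 8 h 5 members were called in both arms, 71.4% of the members called in each, and over all genes the shared calls were 78.9% of those in siPKCiz and 45% of those in siControl. At 24 h 6 were called in both, 75% of those called in siPKCiz and 100% of those in siControl, against 71.1% and 62% over all genes. The 2 arms share no arrays, whereas 8 h and 24 h in an arm share their untreated arrays. HOXB8, HOXC13, HOXD10 and HOXD11 were called in all 4 comparisons. The changes of the 8 members that were below the median of all probe sets in every group lay between -0.18 and 0.33 over all 12 comparisons, with 0 limma calls and 5 members at an unadjusted p under 0.05 in at least 1 comparison. A member that rises above that median leaves this set by its own change, as HOXD11 did, so their lack of calls is partly fixed by the definition.

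Without replicate 1 more members were called in siControl, 13 at 8 h and 10 at 24 h, where 15.9% and 15.6% of all genes were called. In siPKCiz 10 and 9 were then called, where 6.11% and 9.45% of all genes were. Without replicate 2, 3 members were called at 8 h and 4 at 24 h in siPKCiz, against 1.94% and 4.42% of all genes, and 5 at each time in siControl, against 3.71% and 4.14%. Without replicate 3 the members' numbers were again 3, 4, 5 and 5, against 1.76% and 4.24% of all genes in siPKCiz and 4.36% and 4.11% in siControl. HOXB8, HOXD10 and HOXD11 were among the called members in each of these fits. Over all 3 replicates, of 6 epithelial markers 0 rose and 2 fell at 24 h in siPKCiz, and 0 rose and 3 fell in siControl, CDH1 and KRT19 in both. For these and the fibroblast markers that follow, the share of all genes called was 10.7% in siPKCiz and 12.3% in siControl. Of 6 fibroblast markers, all measured, 2 rose at 24 h in siPKCiz, LUM by 0.84 ± 0.14 (adjusted p = 0.000429) and PDGFRA by 0.67 ± 0.15 (adjusted p = 0.00702), and 1 rose in siControl, LUM by 1.28 ± 0.14 (adjusted p = 5.16e-06). Their summed intensity was 1191 to 1284 at 24 h in siPKCiz against 889.5 to 968.5 untreated, and 1238 to 1259 in siControl against 964.5 to 1111 untreated, with median changes of 0.167 and 0.108 over the list. The part of these markers in the HOX values was not tested.

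The next question was whether silencing of the atypical PKCs altered the HOX response to TGFβ. By the interaction test 0 of 27 members and 0% of all genes were called at 8 h and at 24 h. At each time 2 members had an unadjusted limma p under 0.05, a level at which all genes were not counted. HOXB8 was one of them at both. Its fall was smaller in siPKCiz than in siControl by 0.63 ± 0.16 log2 units at 8 h (95% interval 0.29 to 0.97; limma adjusted p = 1) and by 0.64 ± 0.16 at 24 h (0.29 to 0.98; limma adjusted p = 1). These intervals are not corrected for the number of genes, and the corrected test does not separate the arms. Both interactions share the untreated arrays, where HOXB8 was 9.03, 8.92 and 9.12 in siPKCiz against 9.48, 9.23 and 9.66 in siControl. For HOXD10 the interaction was -0.49 ± 0.26 at 8 h (95% interval -1.03 to 0.05) and 0.19 ± 0.26 at 24 h (-0.35 to 0.73). For HOXD11 it was -0.18 ± 0.13 at 8 h (-0.44 to 0.09) and 0.22 ± 0.13 at 24 h (-0.04 to 0.49).

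Silencing itself was then compared without regard to TGFβ, as the mean difference between siPKCiz and siControl over the 3 conditions. This test counts the 3 conditions of a replicate number as separate arrays. Where the arms differ by replicate number in every condition, as for HOXC8 and HOXD8 below, its p-values can be too small. HOXC8, which specifies motor neurons of the forelimb level in mouse, was lower in siPKCiz, and HOXC10, a gene of the hindlimb level in the same cluster, was higher. HOXB2, HOXB13 and HOXC13 were higher and HOXD8 was lower. These 6 of 27 members, 22.2%, compare with 19.9% of all genes called in that comparison (11.8% higher, 8.17% lower), so the share among HOX genes was near that of all genes.

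HOXC8 in siPKCiz had 7.65, 7.23 and 7.11 without TGFβ, 8.14, 7.49 and 7.44 at 8 h, and 8.10, 7.58 and 7.62 at 24 h. The siControl arrays had 7.60, 8.35 and 8.38 without TGFβ, 8.19, 8.50 and 8.43 at 8 h, and 8.20, 8.78 and 8.83 at 24 h. Replicates 2 and 3 of siPKCiz were below all siControl arrays of the same condition in all 3 conditions, and in replicate 1 the arms lay close to each other. The arms overlapped without TGFβ and not at 8 h or 24 h. The mean difference was -0.77 ± 0.13 log2 units (1.70-fold lower; adjusted p = 0.000449), and without replicate 1 it was -1.13 ± 0.048 (adjusted p = 2.93e-10). The fit without replicate 1 rests on replicates 2 and 3 alone, each counted in all 3 conditions, after the replicate that differed was left out. The call over all arrays was lost without replicate 2 (-0.59 ± 0.18; adjusted p = 0.0906) and without replicate 3 (-0.57 ± 0.17; adjusted p = 0.085). HOXC10 in siPKCiz had 7.74, 7.98 and 7.92 without TGFβ, 7.23, 7.63 and 7.65 at 8 h, and 7.42, 8.19 and 7.69 at 24 h. The siControl arrays had 7.54, 7.26 and 7.26 without TGFβ, 7.08, 6.89 and 6.64 at 8 h, and 7.54, 6.88 and 7.14 at 24 h. The arms overlapped only at 24 h, where replicate 1 was the lowest in siPKCiz and the highest in siControl. Its mean difference was 0.58 ± 0.11 (1.495-fold higher; adjusted p = 0.00072), and 0.83 ± 0.078 without replicate 1 (adjusted p = 9.7e-07). It was not called without replicate 2 (0.41 ± 0.11; adjusted p = 0.0683) or without replicate 3 (0.50 ± 0.15; adjusted p = 0.0835).

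HOXD8 in siPKCiz had 7.85, 7.66 and 7.72 without TGFβ, 7.96, 7.78 and 7.70 at 8 h, and 7.95, 7.55 and 7.54 at 24 h. The siControl arrays had 7.76, 8.23 and 8.14 without TGFβ, 7.93, 8.07 and 8.01 at 8 h, and 7.79, 7.94 and 8.14 at 24 h. It showed the pattern of HOXC8, with siPKCiz below siControl in replicates 2 and 3, but slightly above it in replicate 1. The difference was -0.26 ± 0.073 (adjusted p = 0.0193), and -0.43 ± 0.052 without replicate 1 (adjusted p = 1.26e-05). Without replicate 2 it was -0.18 ± 0.10 (adjusted p = 0.359) and without replicate 3 -0.16 ± 0.097 (adjusted p = 0.412). HOXB7 was not called over all arrays, and without replicate 1 it was lower in siPKCiz by 0.33 ± 0.066 (adjusted p = 0.00134). Its untreated values were 8.93, 8.33 and 8.60 in siPKCiz against 8.12, 8.90 and 8.92 in siControl, so that replicate 1 ran against the other two.

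HOXB2 was higher in siPKCiz, with 7.77, 7.97 and 8.11 without TGFβ, 7.22, 7.54 and 7.61 at 8 h and 7.53, 7.33 and 7.51 at 24 h. The siControl values were 7.48, 7.34 and 7.61 without TGFβ, 7.31, 7.21 and 7.03 at 8 h, and 7.25, 6.81 and 7.03 at 24 h. The arms overlapped at 8 h and not in the other conditions, and the mean difference was 0.39 ± 0.073 (1.31-fold; adjusted p = 0.000864). HOXB13 in siPKCiz had 7.60, 7.91 and 7.84 without TGFβ, 7.38, 7.43 and 7.42 at 8 h, and 7.56, 7.72 and 7.68 at 24 h. In siControl cells the values were 7.44, 7.47 and 7.38 without TGFβ, 7.42, 7.15 and 7.03 at 8 h, and 7.28, 7.18 and 7.13 at 24 h. The arms overlapped at 8 h and not in the other conditions, and the mean difference was 0.34 ± 0.056 (1.27-fold; adjusted p = 0.00029). HOXC13, described above, was higher by 0.23 ± 0.048 (1.17-fold; adjusted p = 0.00268), and its arms did not overlap in any of the 3 conditions. The calls of HOXB2, HOXB13 and HOXC13 were lost without replicate 2 and without replicate 3, with adjusted p between 0.0553 and 0.103.

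**Figure D3:**
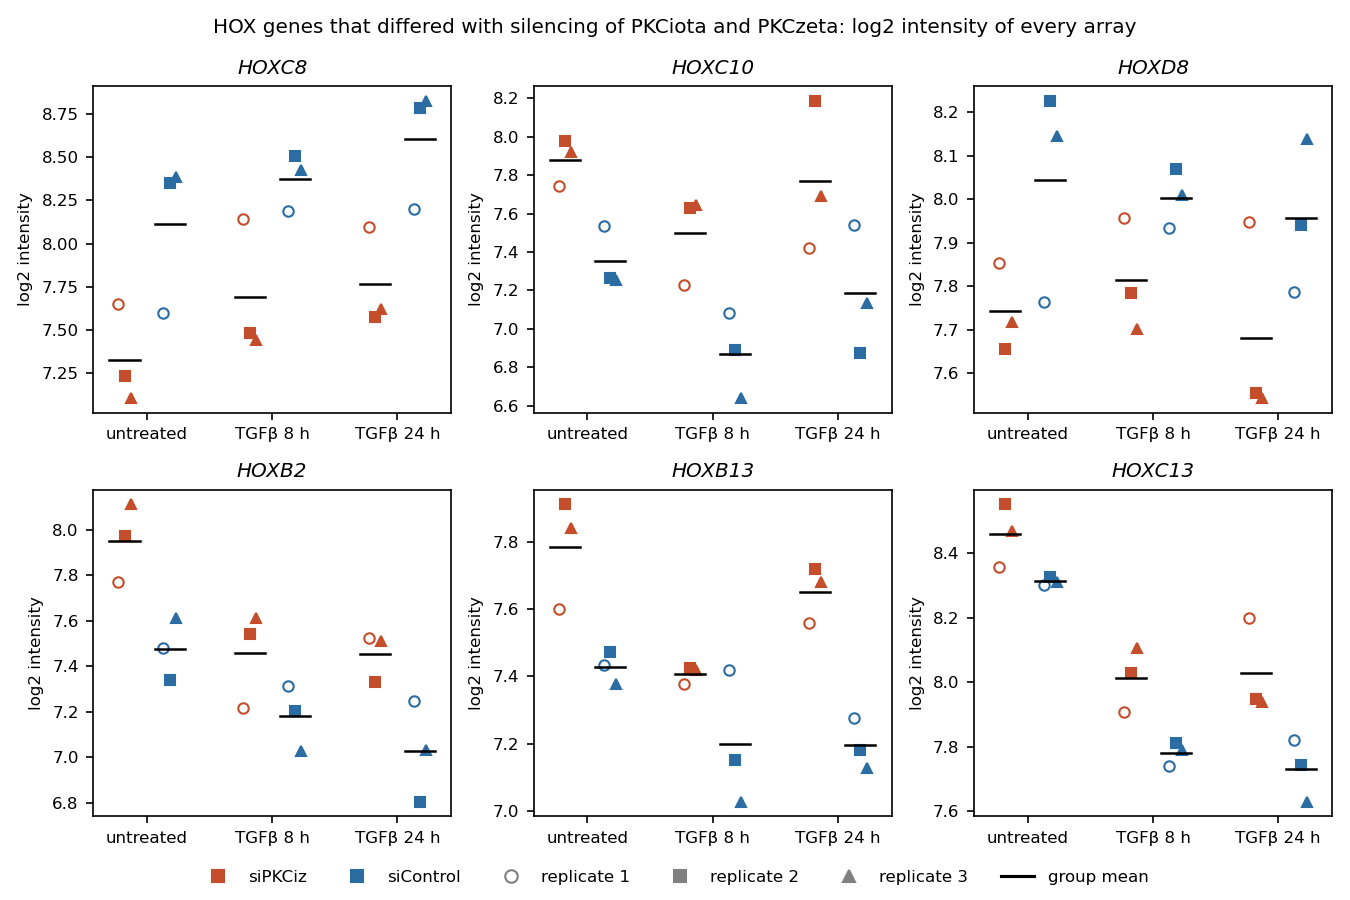
Log2 intensity of the 6 HOX genes called between the siRNA arms on all 18 arrays, by condition, with siPKCiz (red) left of siControl (blue) and replicate 1 as open circles; black bars are group means. For HOXC8 the open circles of both arms lie close together and for HOXD8 siPKCiz has the higher one, while in replicates 2 and 3 siPKCiz lies lower for both genes.

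By condition, 2 members were higher and 1 lower in siPKCiz without TGFβ, where 3.58% of all genes were called (2.12% higher, 1.45% lower). HOXB2 (0.48 ± 0.13; adjusted p = 0.0433) and HOXB13 (0.36 ± 0.096; adjusted p = 0.0478) were higher, and HOXB8 was lower (-0.43 ± 0.12; adjusted p = 0.0448). All 3 lay close to the threshold, and the other settings that end these calls are given in the closing section. At 8 h 0 members were called by limma, against 5.41% of all genes. An unadjusted limma p under 0.05 was reached by 6 members, and the share of all genes at that level was not counted. At 24 h HOXB13 was the 1 member called (0.46 ± 0.096; adjusted p = 0.0131), against 3.19% of all genes. Without replicate 1, 6, 8 and 7 members were called without TGFβ, at 8 h and at 24 h, where 8.23%, 19% and 11.3% of all genes were called, and 9 in the mean of the conditions, against 31.4% of all genes. Without replicate 2, and likewise without replicate 3, 0 members were called by limma in any of these 4 comparisons. Calls over all genes fell away too, to 0.163% untreated, 0.19% at 8 h, 0.0979% at 24 h and 4.55% in the mean without replicate 2, and to 0.147%, 0.131%, 0.109% and 4.56% without replicate 3. Replicate 1 was also the one in which PRKCZ differed least between the arms, and the part of this in the HOX values was not tested.

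**Figure D4:**
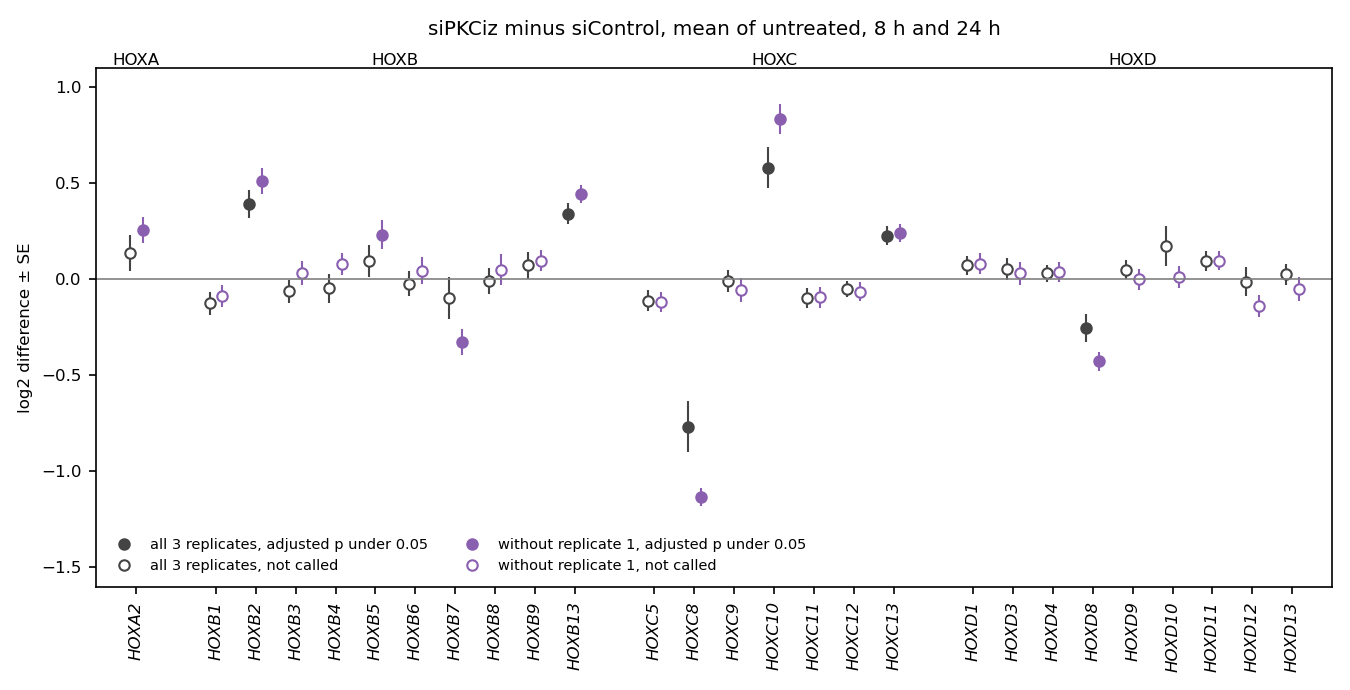
Mean log2 difference between siPKCiz and siControl over untreated, 8 h and 24 h for the 27 HOX genes, from all 3 replicates (grey) and without replicate 1 (purple); bars are ± 1 SE and filled points have a limma adjusted p under 0.05 over all genes. HOXC8 lies at -0.77 and -1.13 and HOXC10 at 0.58 and 0.83 in the 2 fits.

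Genes that work with or on the HOX clusters were read from lists chosen for this purpose. As a scale for the counts of every list, 6.48% of all genes were called at 8 h and 10.7% at 24 h in siPKCiz, and 11.4% and 12.3% in siControl. Of 7 HOX cofactors measured, 0 rose and 0 fell at 8 h in siPKCiz, and 3 rose and 1 fell at 8 h in siControl. At 24 h 1 rose and 1 fell in siPKCiz, and 3 rose and 1 fell in siControl. MEIS1 rose at 24 h by 0.54 ± 0.086 in siPKCiz (adjusted p = 0.000325) and by 0.73 ± 0.086 in siControl (adjusted p = 1.52e-05). MEIS2 fell at 24 h by 0.44 ± 0.14 in siPKCiz (adjusted p = 0.0466) and by 0.43 ± 0.14 in siControl (adjusted p = 0.0447). PBX3 stood at 0.27 ± 0.091 in siPKCiz (adjusted p = 0.0666) and rose by 0.37 ± 0.091 in siControl at 24 h (adjusted p = 0.0101). The list's median change at 24 h was 0.147 in siPKCiz and 0.258 in siControl, against -0.008 and -0.01 over all genes.

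Of 24 Polycomb genes 1 rose at each time in siPKCiz, where 6.48% of all genes were called at 8 h and 10.7% at 24 h. In siControl 2 rose at 8 h, and 1 rose and 1 fell at 24 h, where 11.4% and 12.3% of all genes were called. The gene called throughout was JARID2, a subunit that brings the complex to DNA. It rose at 8 h by 0.79 ± 0.14 in siPKCiz (adjusted p = 0.00161) and by 0.89 ± 0.14 in siControl (adjusted p = 0.000299). Its mean log2 intensity was 10.67 ± 0.298 at 8 h against 9.89 ± 0.1 untreated in siPKCiz, and 11.01 ± 0.0721 at 8 h against 10.12 ± 0.0833 untreated in siControl (SD, n = 3 each). The list's median change at 8 h was -0.093 in siPKCiz and -0.113 in siControl, against 0 and 0.002 over all genes. Of 17 MLL complex and demethylase genes 2 rose and 0 fell at 8 h in siPKCiz, and 1 rose and 2 fell in siControl. At 24 h 4 rose and 1 fell in siPKCiz, and 3 rose and 1 fell in siControl. KDM6B, which removes the Polycomb mark, rose at 8 h by 1.21 ± 0.28 in siPKCiz (adjusted p = 0.0121) and by 1.77 ± 0.28 in siControl (adjusted p = 0.000358). At 8 h its arrays spanned 9.43 to 10.38 in siPKCiz against 8.48 to 8.72 untreated, and 10.56 to 10.79 in siControl against 8.65 to 9.10 untreated. Between the siRNA arms, in the mean of the conditions, 6 Polycomb genes were higher and 4 lower in siPKCiz, and 6 genes of the MLL list were higher and 1, KDM6B, was lower (-0.51 ± 0.16; adjusted p = 0.0348). In that comparison 19.9% of all genes were called (11.8% higher, 8.17% lower).

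Of 17 flanking genes 0 rose and 1 fell at each time in siPKCiz, where 6.48% of all genes were called at 8 h and 10.7% at 24 h. In siControl 0 rose and 2 fell at each time, where 11.4% and 12.3% of all genes were called. TTLL6, beside the HOXB cluster, fell at 8 h by 0.77 ± 0.13 in siPKCiz (adjusted p = 0.00109) and by 0.71 ± 0.13 in siControl (adjusted p = 0.00114). MTX2, beside the HOXD cluster, fell at 24 h by 0.40 ± 0.10 in siPKCiz (adjusted p = 0.0145) and by 0.41 ± 0.10 in siControl (adjusted p = 0.0113). Of 21 ParaHox and other linked homeobox genes 0 were called with TGFβ in siPKCiz at either time, and 1, DLX2, rose in siControl at 8 h. Of 15 retinoic acid pathway genes 1 rose and 1 fell at 8 h in siPKCiz, and 2 rose and 1 fell in siControl. RDH10, which makes the precursor of retinoic acid, fell at 8 h by 1.15 ± 0.18 in siPKCiz (adjusted p = 0.000681) and by 1.21 ± 0.18 in siControl (adjusted p = 0.000215). CYP26B1, which breaks down retinoic acid, rose at 8 h by 0.38 ± 0.11 in siPKCiz (adjusted p = 0.042) and by 0.72 ± 0.11 in siControl (adjusted p = 0.000242). Of 6 HOX cluster RNAs measured, HOXA-AS2 was the 1 called with TGFβ, at 24 h in both arms. Between the arms, MIR10A, the precursor of miR-10a, was called lower in siPKCiz at 8 h and in the mean of the conditions. In those comparisons 5.41% and 19.9% of all genes were called. Its probe set was dim, with 5.89, 5.71 and 5.86 at 8 h in siPKCiz against 6.13, 6.18 and 6.02 in siControl. The precursor of miR-196a on chromosome 17, MIR196A1, had 8.59, 8.23 and 8.31 at 8 h in siPKCiz against 8.48, 8.54 and 8.18 untreated, and 8.35, 8.77 and 8.96 at 8 h in siControl against 8.69, 8.44 and 8.48 untreated. These groups overlapped in both arms, and the array reads the precursor transcript and not the mature microRNA.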

How the data were processed

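A549 RNA (200 ng per array, per the labels' protocols) was hybridised to 18 Affymetrix whole-transcript arrays. The deposited values were intensity on a linear scale, made by the authors with RMA and Partek per the submitters' processing notes, of unstated versions; the probe sets' strand and coordinates were not used. Log2 was taken once and no other normalization applied. Of 28869 probe sets, 19310 carried 1 gene symbol, and the brightest by mean log2 stood for each of 18377 genes. Every HOX member had 1 probe set. HOX paralogs are alike in sequence and neighbours can share transcripts or overlap antisense genes, so a probe set may also read a relative; this was not tested.

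limma 3.58.1 in R 4.3.3 fitted 6 group means over all arrays (12 residual and 18.1 total degrees of freedom), with 12 comparisons and Benjamini-Hochberg adjustment over all genes. Genes under an adjusted p of 0.05 were called, "rose" or "fell". The fit was also run on simulated data with independent noise on every array. That run cannot show how the fit behaves where replicate numbers differ between the arms. Genes described one by one were HOXB8, HOXD10, HOXD11, every called member, the 2 brightest members of each cluster, and up to 4 called genes of each other list. Members and lists were chosen with earlier results of these data known. The alternatives were the replicate number as a block, a filter on dim genes, median centring, quantile normalization, moderation with trend and robust settings, only the arrays compared, all probe sets with 1 symbol, and leaving out each replicate number.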

Additional observations from a re-analysis of the deposited data

How the results depend on the processing

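The direction of 39 calls of single HOX genes was the same under every alternative run. The calls themselves held in 39 of 39 with median centring and in 38 with trend and robust moderation. In 37 they held with quantile normalization and with the replicate block. With only the arrays compared 30 of 33 held, a setting that could not differ for the mean of the conditions. With all probe sets the calls held in 39, which is little support, since every HOX member had 1 probe set and kept its values. They also held in 39 with the dim filter, which is no support, since a member such as HOXD11 passes it through the groups where it is high. They held in 36 of 39 without replicate 1 and in 17 without replicate 2 or replicate 3.

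Counts of called members moved as follows. Shares of all genes called under these settings are not given here, so the moves are not read as results about HOX genes. For 24 h against 8 h in siControl there was 1 call, and 2 with the dim filter, quantile normalization or only the arrays compared. For siPKCiz against siControl without TGFβ there were 3 calls, and 1 with quantile normalization. At 8 h there were 0, and 1 (HOXC10) with the dim filter, quantile normalization, median centring or only the arrays compared. At 24 h there was 1, and 3 with the dim filter and 2 with quantile normalization or median centring. HOXB2 and HOXB13 without TGFβ had adjusted p of 0.0535 and 0.0662 with quantile normalization, HOXB13 0.0555 with trend and robust moderation and 0.0778 with only the arrays compared, where HOXB8 had 0.0721 and HOXB6 in siPKCiz at 8 h 0.0677.

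Leaving out 1 replicate number gave 5 to 13 calls for TGFβ at 8 h and 5 to 10 at 24 h in siControl, 3 to 10 at 8 h and 4 to 9 at 24 h in siPKCiz, 0 to 4 for 24 h against 8 h in siControl and 0 to 1 in siPKCiz. For siPKCiz against siControl it gave 0 to 6 without TGFβ, 0 to 8 at 8 h, 0 to 7 at 24 h and 0 to 9 in the mean. The shares of all genes called in these fits moved too and are given above, except for 24 h against 8 h. The counts for 24 h against 8 h are therefore not read as a result about HOX genes. Without replicate 1, HOXB8 without TGFβ had an adjusted p of 0.0793. The cause of these changes was not tested, beyond the fewer arrays that each of these fits holds.

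Replicate numbers did not pair the arrays in the same way over all groups. Of 45 correlations of same-numbered deviations 7 were above 0.1 (range -0.514 to 0.258), and an array correlated best with its own number in 17 of 90 cases. The highest value lay between 8 h and 24 h in siPKCiz (0.169, 0.067 and 0.258 for replicates 1, 2 and 3). The lowest lay between siPKCiz at 8 h and siControl at 24 h (-0.514, -0.344 and -0.178). A block shifts all groups of a number alike and cannot hold such opposite deviations. With the replicate block 1 member, HOXB8, was called between the arms without TGFβ in place of 3, and HOXB2 and HOXB13 had adjusted p of 0.0662 and 0.0819. It changed no other call of a HOX member.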

Other observations

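A probe set that carries both HOXC6 and HOXC4, and so stood for neither, had log2 intensities at 24 h of 8.66, 8.62 and 8.61 in siPKCiz against 8.50, 8.37 and 8.57 untreated, and of 8.60, 8.88 and 8.77 in siControl against 8.63, 8.55 and 8.56 untreated. It was not tested.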
